A study of Mus musculus with 2 samples.

Results

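Genes of the YAP and TEAD pathway were followed across the cells of the newborn mouse eye cup, with and without the transcription factor Myrf. The set holds 9 genes, Yap1, Wwtr1, Tead1, Tead2, Lats2, Ctgf, Cyr61, Ankrd1 and Amotl2, taken by symbol from the 31053 genes counted. Ctgf and Cyr61 are the symbols in the counted annotation for the genes now named Ccn2 and Ccn1. The samples were eye cups at postnatal day 0 with cornea, lens and optic nerve removed, dissociated with papain and profiled by droplet single cell RNA sequencing from the 3′ end. The control library pooled 3 Myrf fl/fl eye cups, and the mutant library pooled 3 Rx>cre Myrf fl/fl eye cups. The floxed Myrf alleles are thus shared by both libraries, and only the mutant carries the Rx>cre transgene, which acts from the early eye field and so in neural retina as well as retinal pigment epithelium (RPE). With 1 library per genotype there is no replicate, so genotype cannot be told apart from library, and no test or p-value is given. Every interval below is a 95% interval that covers counting error only. Other ages of this study were not analysed here.

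YAP, encoded by Yap1, and its paralogue TAZ, encoded by Wwtr1, are transcriptional coactivators that bind no DNA themselves and reach their targets through TEAD factors such as those encoded by Tead1 and Tead2. Phosphorylation by the LATS kinases of the Hippo cascade keeps YAP and TAZ in the cytoplasm, so mRNA levels of these genes do not report their activity. Ctgf and Cyr61, which encode secreted matricellular proteins, Ankrd1, which encodes an ankyrin repeat protein of muscle, and Amotl2, which encodes a junctional angiomotin protein that holds YAP back, are widely used as transcriptional readouts. In the developing eye YAP is known for its part in RPE fate, and the balance between RPE and neural retina depends on it.

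The control library held 14305 barcodes and 79017429 unique molecular identifiers (UMIs, each marking 1 captured transcript), and the mutant library 12222 barcodes and 76272867 UMIs. After limits on genes, mitochondrial share and doublets, 12534 control and 10870 mutant cells remained, and the median cell of each held 4265 and 4828 UMIs. Clustering without the pathway genes gave 37 clusters, and 12 classes named from marker genes had at least 50 cells in each library. Of the 37 clusters, 8 stayed unnamed, with 4023 control and 2814 mutant cells (32.1% and 25.9% of kept cells). These cells enter no class level, rank or ratio, although some of them match retinal progenitors best. There were 487 control and 202 mutant RPE-like cells, and their median depth was 2452 UMIs against 10618 UMIs. Levels are UMIs scaled to a class total of 1000000 UMIs (CPM, counts per 1000000), and a ratio is log2 of mutant over control CPM after adding 1 CPM to each. The targeted gene checked the labels, although 3′ counting may also see transcripts of a recombined allele. Myrf had 743 UMIs in RPE-like cells of the control and 64 in those of the mutant, or 231 and 26.6 CPM, which was 8.70-fold lower in the mutant. The RPE label was checked as well. Pmel, a melanosome matrix gene, was at 13856 and 10605 CPM in RPE-like cells, and Dct, a melanin synthesis gene, at 5826 and 4438 CPM, but melanocytes express both. Among RPE markers not on the melanocyte list, Ttr, a thyroid hormone carrier gene, was at 4969 and 1107 CPM and Rlbp1, a retinoid binding protein gene, at 817 and 336 CPM, both lower in the mutant. Smaller differences were seen for Otx2, at 684 and 545 CPM, Mitf, at 167 and 155 CPM, and Slc45a2, at 104 and 71.9 CPM. Tyr was higher in the mutant, at 949 and 1177 CPM. The late RPE markers Rpe65, with 12 and 0 UMIs, and Best1, with 3 and 3 UMIs, were nearly absent at this age. Rgr, one of the genes that lead the cluster, had 3716 UMIs in control and 15 UMIs in mutant cells. Of the melanocyte markers, Pax3 had 0 UMIs in both libraries, whereas Sox10 had 232 and 9 UMIs and Mlana 3901 and 2352 UMIs. Kit had 157 and 109 UMIs, Ednrb 408 and 174 UMIs and Gpr143 379 and 125 UMIs.

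The level of marker RNA in cells that should lack it and the sex composition also differed between the libraries. The 12 mesenchyme and mural marker genes summed to 2189 CPM in control and 293 CPM in mutant photoreceptor-like cells. Among retinal progenitor-like cells, 61 control cells held Xist and no Y-linked UMI and 1759 the reverse, whereas in the mutant 2658 held Xist only and 512 Y-linked UMIs only. The mix also varied by class within the control library. There 81 RPE-like cells held Xist only and 127 Y-linked UMIs only, and for mesenchyme-like cells these numbers were 274 and 593. The sex mix of the cells thus differed between the pools, and genotype and animals cannot be told apart. Furthermore, 59 barcodes occurred in both libraries.

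All 9 genes are protein-coding, and their positions are given on GRCm38. The coactivator genes are Yap1, on the minus strand of chromosome 9 from 7931999 to 8004596, and Wwtr1, on the minus strand of chromosome 3 from 57455649 to 57575910. Tead1 (112679318 to 112906807) and Tead2 (45215753 to 45233644) both lie on the plus strand of chromosome 7. Lats2 lies on the minus strand of chromosome 14 from 57689662 to 57758388. It overlaps Gm49361 on its own strand, so its reads may be split with that gene. Ctgf lies on the plus strand of chromosome 10 from 24595442 to 24598683, and Cyr61 on the minus strand of chromosome 3 from 145646976 to 145649981. Ankrd1 lies on the minus strand of chromosome 19 from 36111961 to 36120099, and Amotl2 on the plus strand of chromosome 9 from 102716672 to 102733418. No gene but Lats2 overlapped another counted gene on its strand.

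Promoter windows from 250 bases before to 50 bases after the RefSeq start (GRCm38.p6) were matched for 7 of the 9 genes, with none for Ctgf and Tead1. They were searched for GGAATG, the core that TEAD factors prefer, on both strands. This core is short, and 14.7% of all 32851 windows hold it, so a match is a description and not a binding site. It was found in 6 of the 7 genes and not in the Tead2 window. The window of Cyr61, the target with the most UMIs in RPE-like cells, is shown up to the start (chromosome 3, 145649986 to 145650235, minus strand), with the core in capitals.
Cyr61: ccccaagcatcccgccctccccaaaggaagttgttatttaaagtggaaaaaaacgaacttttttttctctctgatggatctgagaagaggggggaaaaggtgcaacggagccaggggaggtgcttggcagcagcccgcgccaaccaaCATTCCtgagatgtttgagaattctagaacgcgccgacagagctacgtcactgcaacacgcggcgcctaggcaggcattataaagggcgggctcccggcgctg
The other matches before the start are shown as 30 bases around the core. Yap1 (chromosome 9, 8004720 to 8004749, minus strand, 141 bases before the start) and Wwtr1 (chromosome 3, 57576029 to 57576058, minus strand, 136 bases before one of its 2 starts) hold it outside any annotated untranslated region. Ankrd1 holds it at 210 and 123 bases before the RefSeq start (chromosome 19, 36120037 to 36120066 and 36119950 to 36119979, minus strand). Amotl2 holds it 65 bases before (chromosome 9, 102717727 to 102717756, plus strand). The Ankrd1 and Amotl2 matches fall in annotated untranslated sequence.
Yap1: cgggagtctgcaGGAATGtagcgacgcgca
Wwtr1: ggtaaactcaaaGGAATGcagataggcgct
Ankrd1, distal: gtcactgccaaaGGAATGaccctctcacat
Ankrd1, proximal: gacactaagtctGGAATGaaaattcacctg
Amotl2: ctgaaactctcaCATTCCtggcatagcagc
The longer form GGAATGT, which 3.85% of windows hold, is complete in Yap1, Cyr61 and Amotl2, and in Cyr61 and Amotl2 it is read on the opposite strand, where the capitals show CATTCC. Both Wwtr1 windows carry the same match, and the Lats2 match lies just after the start.

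In RPE-like cells Ctgf was several-fold higher in the mutant, while the coactivator, TEAD and LATS genes stayed within 2-fold. Of the 9 genes, 8 reached 20 UMIs over both libraries, and 1 of these 8 was past 2-fold higher in the mutant, where 2.64% of all 11086 genes measured were. None was past 2-fold lower, where 5.17% of genes were. The median ratio of the 8 was 0.04, beside -0.01 over all genes measured. The intervals of 3 of the 8 lay apart from 0, those of Ctgf, Cyr61 and Wwtr1.

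For Ctgf there were 208 control and 485 mutant UMIs in RPE-like cells, or 64.8 CPM (56.3 to 74.2) and 202 CPM (184 to 220.4). The intervals of the levels did not overlap. The ratio was 1.62 (1.40 to 1.88), a 3.11-fold higher level in the mutant, and 99.2% of genes measured in these cells had a lower ratio. When RPE cells were instead taken by the gate first chosen, on pigment genes with no UMI of Pax3, Kit or Mlana, the direction turned to -0.95, from 49 and 9 UMIs in 175 control and 34 mutant cells. Cyr61 had 707 and 823 UMIs, or 220.2 and 342 CPM, a ratio of 0.63 (0.49 to 0.78). It was thus higher in the mutant by 1.55-fold, short of the 2-fold mark. Amotl2 had 229 and 200 UMIs, at 71.3 and 83.1 CPM, with a ratio of 0.22 (-0.06 to 0.50). Its levels in the genotypes overlapped. Ankrd1 had 1 UMI in control and 0 UMIs in mutant cells, so no ratio is given for it. At this depth 3 UMIs would be 0.934 CPM in control and 1.25 CPM in mutant cells.

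Over all RPE-like cells the coactivators were level or lower in the mutant. Yap1 was at 58.2 CPM in control and 47.4 CPM in mutant cells, with a ratio of -0.29 (-0.65 to 0.05). In cells over 8000 UMIs it was at 62.0 and 45.3 CPM (-0.44, from -0.83 to -0.08), and 39.7% of control and 52.6% of mutant cells held none. The shallower cells pointed the other way, with intervals that include 0. Up to 2000 UMIs Yap1 had 9 and 5 UMIs, at 39.7 and 117 CPM (1.54, from -0.36 to 3.30). In cells of 2000 to 8000 UMIs it was at 47.5 and 55.0 CPM (0.21, from -0.97 to 1.31). Wwtr1 was at 53.9 and 38.7 CPM, with a ratio of -0.47 (-0.86 to -0.11), and was the only one of the 8 genes whose interval over all cells lay below 0. Tead1, the TEAD factor with more UMIs in these cells, was at 111 and 117 CPM, with a ratio of 0.08 (-0.15 to 0.31). Tead2 was at 39.9 and 35.3 CPM (-0.17, from -0.59 to 0.23). Lats2, which encodes the inhibitory kinase, was at 24.9 CPM in both libraries (0.00, from -0.51 to 0.50). For the TEAD and LATS genes the intervals over all UMIs include 0 and exclude a 2-fold change in either direction.

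**Figure D1:**
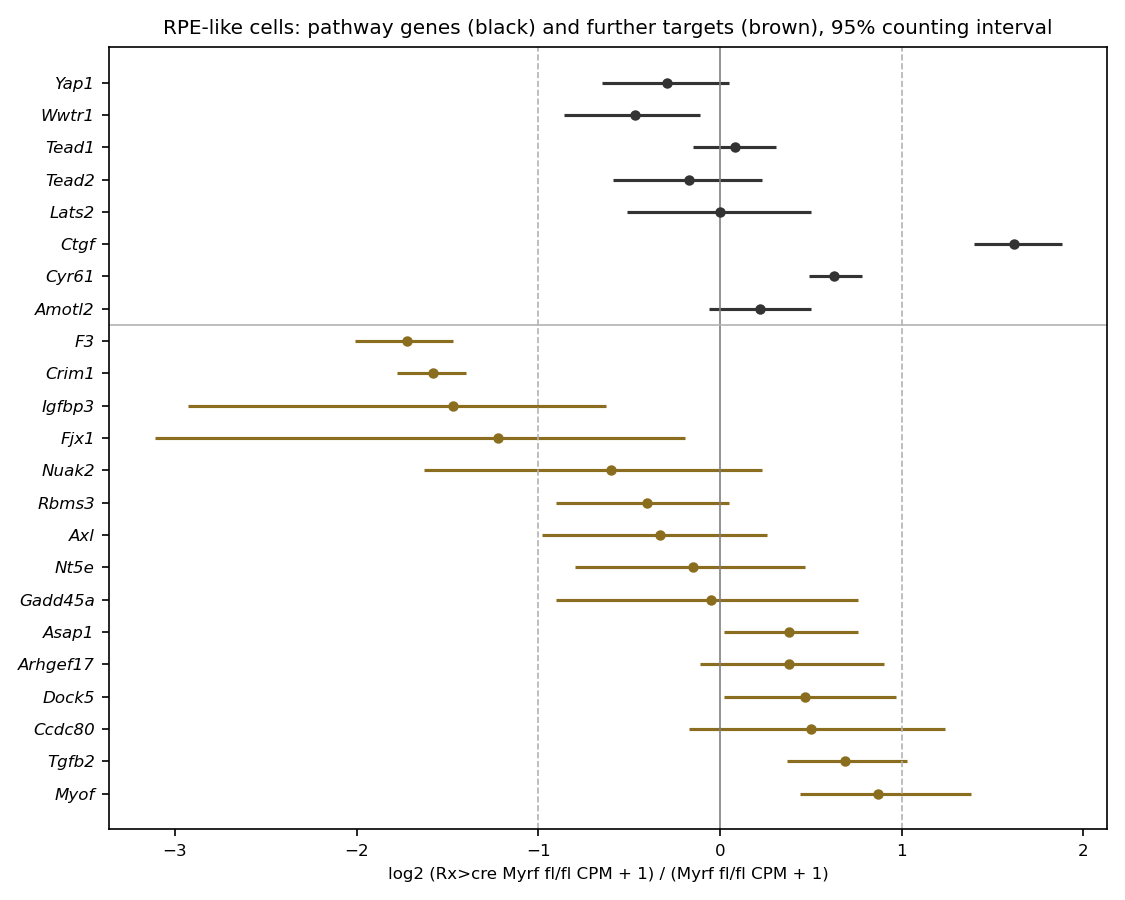
Log2 ratio of mutant over control CPM in RPE-like cells, 1 point per gene with its 95% counting interval, for the 8 measured pathway genes (black) and 15 measured genes of a further target list (brown); dashed lines mark 2-fold. Ctgf at 1.62 is the only black point past a dashed line, and 4 brown points lie past it on the lower side.

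Ctgf was also higher per cell. Mutant RPE-like cells were deeper, so each cell was thinned to 1000 UMIs, which left out 101 control and 25 mutant cells. After thinning, 17 of 386 control cells (4.40%, Clopper-Pearson 2.59 to 6.96) and 30 of 177 mutant cells (16.9%, 11.7 to 23.3) held a Ctgf UMI, against 20.3% and 51.5% unthinned. In photoreceptor-like cells, taken as the background, the thinned shares were 0.303% and 0.789%, at median depths of 2912 and 3269 UMIs. Amacrine-like cells, which had a lower Ctgf CPM in both libraries, had thinned shares of 0.380% and 0.139%. In RPE-like cells the thinned shares for Cyr61 were 12.2% (9.09 to 15.9) and 17.5% (12.2 to 23.9), and these intervals overlap. For Yap1 they were 4.92% and 8.47%, for Wwtr1 3.89% and 3.39% and for Tead1 10.9% and 9.60%. For Amotl2 they were 8.29% and 9.60%, and for Tead2 4.40% (17 cells) and 1.69% (3 cells). The intervals overlap for each of these genes. The Tead2 ratio of the thinned UMIs was -1.33, past 2-fold lower on these few UMIs. The Wwtr1 ratio of the thinned UMIs was 0.02, against -0.47 over all UMIs.

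Among the 151 control and 116 mutant cells over 8000 UMIs, Ctgf differed over most of the distribution. It was absent from 54.3% of the control cells and 26.7% of the mutant cells. At least 5 Ctgf UMIs were held by 3.97% of the former and 31.0% of the latter. The median was 0 UMIs against 2 UMIs. The upper end differed as well, with a 90th percentile of 3 UMIs against 11 UMIs. The highest cell held 24 UMIs in the control, where the next held 8 UMIs, and 28 UMIs in the mutant, where the next held 23 UMIs. Cyr61 was absent from 37.1% and 25.9% of these cells, and its median was 1 and 5 UMIs.

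**Figure D2:**
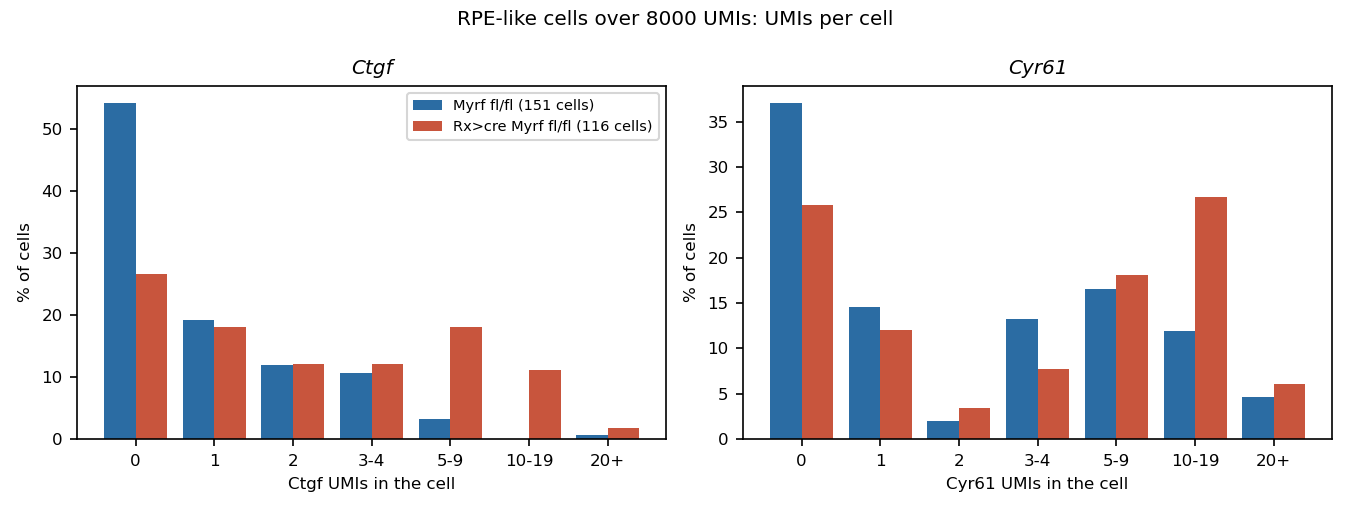
Share of RPE-like cells over 8000 UMIs (vertical axis, %) by the number of Ctgf (left) or Cyr61 (right) UMIs in the cell, for 151 control and 116 mutant cells. Control cells pile up at 0 Ctgf UMIs (54.3%), whereas 31.0% of mutant cells hold 5 or more.

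The Ctgf and Cyr61 differences were both followed over splits of the RPE-like cells. Ctgf was at 57.3 and 164 CPM in cells up to 2000 UMIs, with 13 and 7 UMIs (ratio interval from -0.05 to 2.95). It was at 43.4 and 85.1 CPM in cells of 2000 to 8000 UMIs, with 21 and 17 UMIs (0.96, from -0.04 to 1.96). Above 8000 UMIs it was at 69.6 and 213 CPM (1.60, from 1.36 to 1.87). The mutant was thus higher in each depth range, with an interval apart from 0 in the deepest. Cyr61 instead was at 83.8 and 23.5 CPM in the shallowest range, with 19 UMIs and 1 UMI (-1.79, from -7.21 to 0.82). It was at 72.3 and 55.0 CPM in the middle range (-0.39, from -1.52 to 0.62) and at 261 and 375 CPM in the deepest (0.52, from 0.37 to 0.67). The intervals of the shallow and middle ranges include both 0 and the value of the deepest range, so at this depth no change of direction can be read from them.

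Fos, an immediate early gene that dissociation can induce, moved with Cyr61. Its level in RPE-like cells was 295 CPM in control and 409.9 CPM in mutant cells. Of the 15 dissociation and immediate early genes, 2 were past 2-fold higher (Fosb at 1.56 and Junb at 1.09), 1 past 2-fold lower (Atf3 at -1.75), beside 2.64% and 5.17% of all genes measured, and the median was 0.28. In RPE-like cells without a Fos UMI, 370 control and 118 mutant cells, Ctgf was at 46.9 and 148 CPM (1.64, from 1.22 to 2.10). Cyr61 in those cells was at 73.1 and 60.5 CPM (-0.27, from -0.80 to 0.23). In the 117 and 84 cells with a Fos UMI, Ctgf was at 82.6 and 226 CPM (1.44, from 1.16 to 1.75), and Cyr61 at 366 and 468 CPM (0.35, from 0.20 to 0.51). Cells over 8000 UMIs made up 79 and 78 of the cells with a Fos UMI and 72 and 38 of those without, so the split was repeated within them. There Cyr61 was at 75.2 and 67.0 CPM without Fos and at 382 and 473 CPM with it, and Ctgf at 46.7 and 170.5 CPM without Fos and at 84.5 and 227 CPM with it. The Ctgf ratio was as large without Fos as with it, whereas the Cyr61 level was several-fold higher in cells with Fos in both libraries.

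Cells of the sexes, which come from different animals of each pool, gave the same direction for Ctgf in RPE-like cells. Xist-only cells (Xist present, no UMI of a Y-linked gene), 81 and 80 per library, were at 69.9 and 209 CPM (1.57, from 1.19 to 2.00). Y-only cells, the reverse, 127 and 36, were at 65.4 and 235 CPM (1.83, from 1.44 to 2.26). The remaining cells of the 487 control and 202 mutant RPE-like cells fell in neither group and are left out of this split. Within a genotype the Ctgf levels of the sexes lay close together. Cyr61 was at 245 and 337 CPM in the former (0.46, from 0.23 to 0.69) and at 266 and 476 CPM in the latter (0.84, from 0.60 to 1.08).

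**Figure D3:**
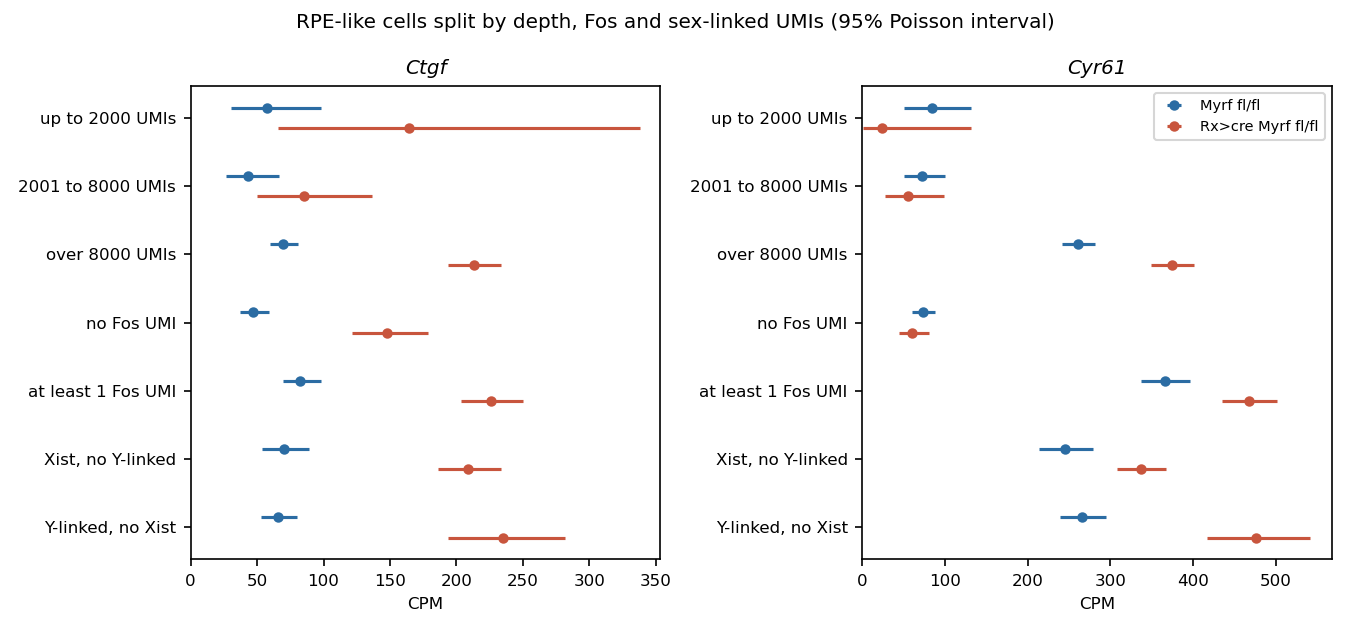
Level of Ctgf (left) and Cyr61 (right) in RPE-like cells (horizontal axis, CPM with 95% Poisson interval), split by UMIs per cell, by presence of a Fos UMI and by sex-linked UMIs, in control (blue) and mutant (red). The mutant Ctgf point is to the right of the control point in every split, whereas for Cyr61 it is to the left in cells up to 8000 UMIs and in cells without Fos, with overlapping intervals.

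Marker RNA of mesenchyme, where Ctgf and Cyr61 are high, was also counted in RPE-like cells, and less of it in the mutant. In RPE-like cells the 12 mesenchyme and mural markers summed to 2664 CPM in control and 611 CPM in mutant cells. Of the 9 measured, 6 were past 2-fold lower and 1, Pdgfra at 1.06, past 2-fold higher, beside 5.17% and 2.64% of all genes measured. Col1a1, the collagen gene with the most UMIs among them, was at 1089 and 42.4 CPM. The ratios of Col3a1, Postn, Lum, Col1a2 and Dcn, all matrix genes, ran from -3.46 to -1.54. The mural genes Rgs5 and Vtn had 4 and 2 control UMIs and 0 mutant UMIs. Acta2, a contractile gene that is not restricted to mural cells, was at 205 and 267 CPM (0.38, from 0.22 to 0.54). Subtracting the profile of all other cells at 10% of the UMIs gave a Ctgf ratio of 1.82 and a Cyr61 ratio of 0.66.

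Of 27 Hippo kinases and regulators, 24 were measured, 1 was past 2-fold higher and none lower in RPE-like cells, beside 2.64% and 5.17% of all genes, with a median of -0.04. A share of 1 in 24 is near that background. The 1 was Amot, which encodes an angiomotin, with 12 and 21 UMIs and a ratio of 1.04 (0.13 to 2.38). Fat4, an atypical cadherin gene, was higher by 0.63 (0.26 to 1.05) and Vgll3, a TEAD cofactor gene, by 0.67 (0.17 to 1.25). Map4k4, a kinase gene, was lower at -0.60 (-0.96 to -0.27), and Nf2, the gene of the membrane scaffold merlin, at -0.65 (-1.34 to -0.07). The core kinase and adaptor genes Stk3, Stk4, Sav1, Lats1, Mob1a and Mob1b were within 2-fold, from -0.39 to 0.49.

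Of 16 further genes that are listed as YAP and TAZ targets, 15 were measured in RPE-like cells. None was past 2-fold higher and 4 were past 2-fold lower, beside 2.64% and 5.17% of all genes, and their median was -0.15, beside -0.01. F3, the gene of tissue factor, was at 193 CPM against 58.2 CPM in the mutant (-1.72, from -2.01 to -1.47). Crim1, which encodes a transmembrane regulator of BMP ligands, was at 353 and 117 CPM (-1.58, from -1.78 to -1.40). Igfbp3, with 39 and 9 UMIs, was at -1.47 (-2.93 to -0.63), and Fjx1, with 23 and 6 UMIs, at -1.22 (-3.11 to -0.19). On the other side lay Myof, a membrane repair gene, at 0.87 (0.44 to 1.38), and Tgfb2, a TGF-beta ligand gene, at 0.69 (0.37 to 1.03). Genes with intervals apart from 0 thus lay on both sides, with those past 2-fold all lower. Ctgf, F3 and Tgfb2 were already named by the study from these libraries, so their differences here are not independent evidence.

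Across classes each gene had its own map, and ranks are given among the 12 classes with at least 50 cells in each library. Yap1 was highest in RPE-like cells in both libraries, at 58.2 CPM in control and 47.4 CPM in mutant cells, and these intervals overlapped those of the next class. An unnamed cluster outside these classes, led by Col10a1, Alkal2 and Alpl, was at 47.8 CPM in the control and at 65.0 CPM (54.4 to 77.1) in the mutant. In the control, pericyte-like cells at 46.5 CPM and mesenchyme-like cells at 43.4 CPM followed. Retinal progenitor-like cells were at 25.5 and 22.2 CPM, neurogenic-like cells at 6.34 and 5.37 CPM and photoreceptor-like cells at 2.16 and 2.42 CPM. Yap1 was therefore lower in neurogenic-like than in progenitor-like cells, with intervals that did not overlap in either library. Wwtr1 was highest in endothelial-like (143 and 139 CPM) and mesenchyme-like cells (132 and 126 CPM), which overlapped each other. It was next in pericyte-like cells, at 90.3 and 99.3 CPM, and in the retinal lineage it was at 51.4 and 46.9 CPM in progenitor-like, 24.7 and 19.5 CPM in neurogenic-like and 6.88 and 3.73 CPM in amacrine-like cells. Of the unnamed clusters best matched to retinal progenitors, the one led by Fam183b was at 71.7 and 66.1 CPM in Wwtr1. The one led by Rsph1 was at 78.7 and 65.6 CPM.

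The TEAD genes differed in where they were high. Among the 12 classes Tead1 was highest in RPE-like cells, at 111 and 117 CPM, overlapping muscle-like cells at 93.4 and 115 CPM. The peripheral glia-like class, with only 21 and 20 cells, was higher, at 247 CPM (164 to 357) and 209 CPM (139 to 302), and it was also above the 12 classes in Wwtr1, at 238 and 224 CPM. It stayed between 62.9 and 81.0 CPM in progenitor-like, neurogenic-like and photoreceptor-like cells of both libraries, and was at 18.0 and 14.7 CPM in amacrine-like cells. Among the 12 classes Tead2 was highest in neurogenic-like cells, at 159 CPM (149 to 169) and 156 CPM (147 to 165), above retinal progenitor-like cells at 125 and 116 CPM with no overlap in either library. That order depends on which clusters were named. Unnamed clusters best matched to retinal progenitors overlapped the neurogenic-like class in both libraries. The one led by Fam183b was at 169 and 161 CPM, and the one led by Rsph1 at 154 and 143 CPM. Tead2 was at 13.4 and 15.6 CPM in photoreceptor-like cells. Within the neurogenic-like class the cluster led by Atoh7, Pkib and Olig2 had the highest Tead2, at 204 and 198 CPM, while the others were between 127 and 135 CPM. A cluster without a name, led by Kirrel2 and P2rx1 and holding Ptf1a and Dlx1 among its top genes, was at 220.1 and 244 CPM. Lats2 was highest in pericyte-like cells, at 58.1 and 70.3 CPM, and endothelial-like cells, at 55.4 and 77.8 CPM, whose intervals overlapped. It was between 5.36 and 12.1 CPM in the retinal classes.

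**Figure D4:**
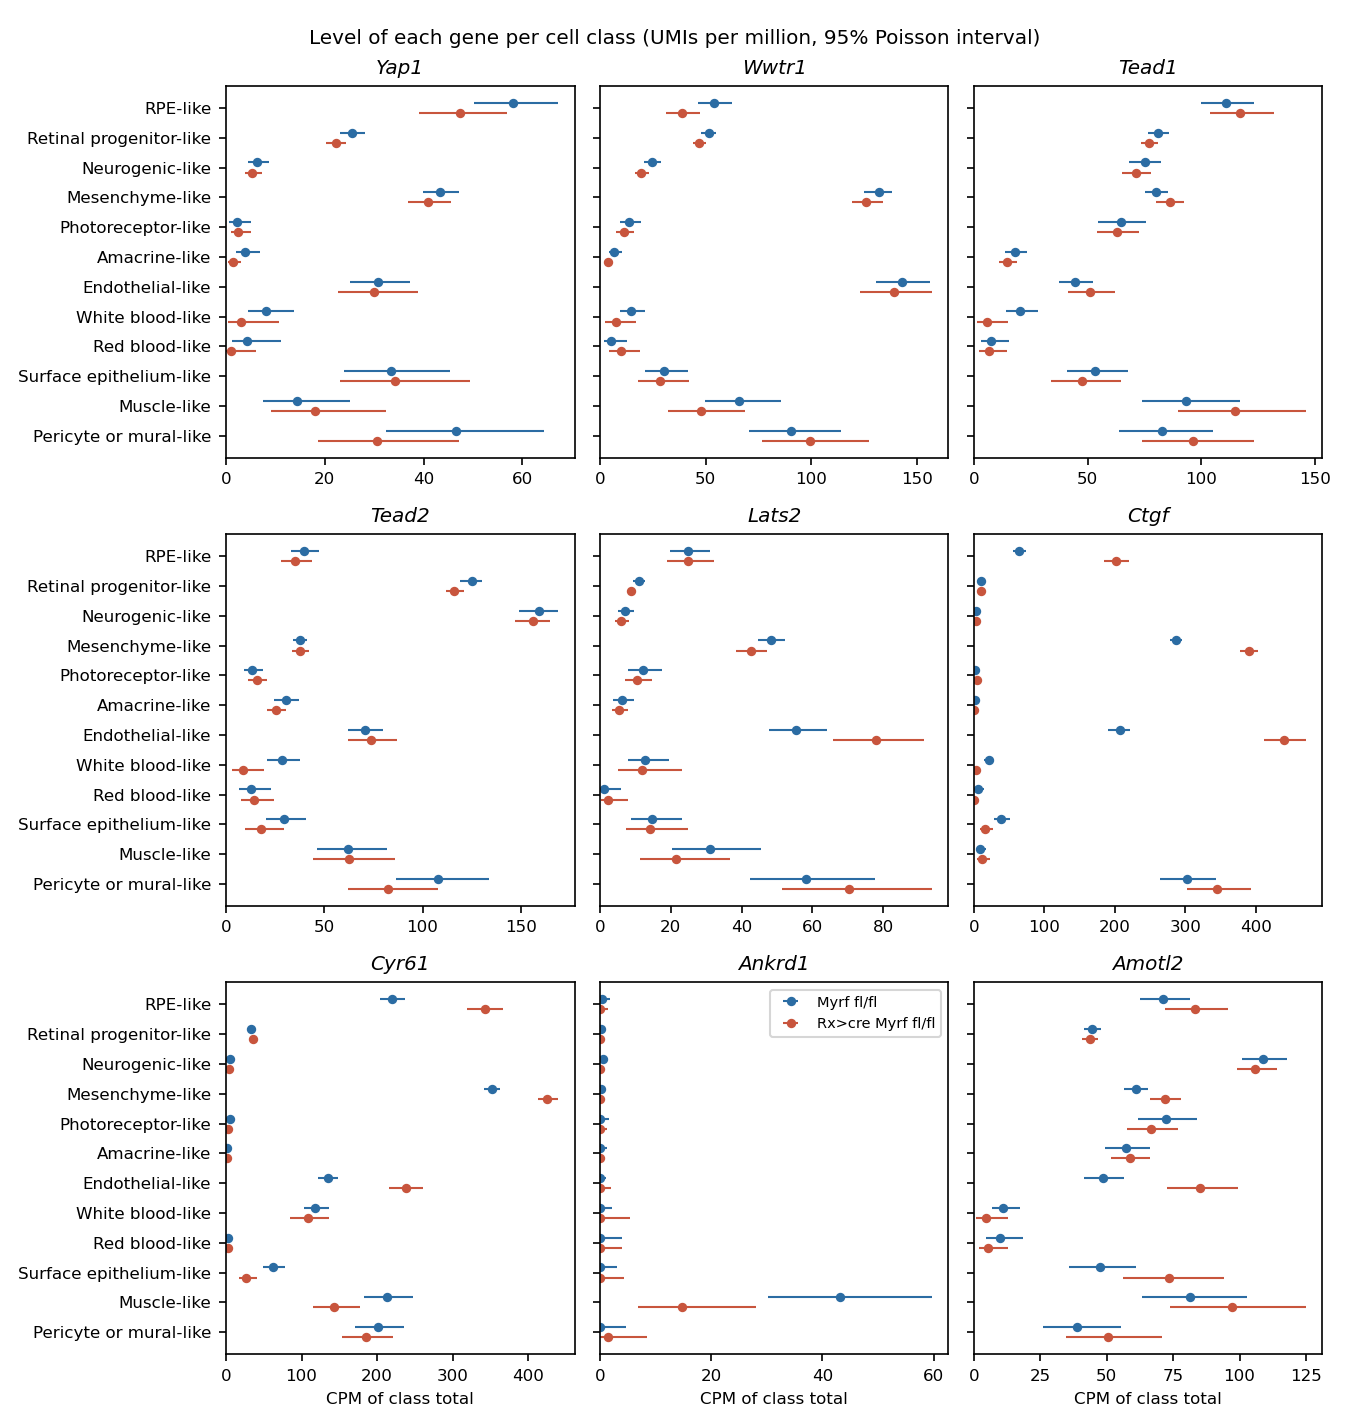
Level of each of the 9 genes (horizontal axis, CPM of the class total with 95% Poisson interval; each panel has its own scale) in the 12 classes, control in blue and mutant in red. Among these classes Yap1 and Tead1 are highest in RPE-like cells, Tead2 and Amotl2 in neurogenic-like cells, Wwtr1 and Ctgf in vascular and mesenchymal classes, and Ankrd1 in muscle-like cells.

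Among the targets, Ctgf was a gene of the tissue around the retina. In the control it was highest in pericyte-like (302 CPM) and mesenchyme-like cells (287 CPM), which overlapped, then in endothelial-like cells (207 CPM), and then in RPE-like cells (64.8 CPM), each below the one before without overlap. In the mutant the order was endothelial-like (440.0 CPM), mesenchyme-like (390.1 CPM), pericyte-like (345 CPM) and RPE-like cells (202 CPM). Retinal progenitor-like cells were at 9.54 and 10.3 CPM, and the neurogenic-like, amacrine-like and photoreceptor-like classes between 0.931 and 4.84 CPM. The unnamed cluster led by Rsph1, best matched to retinal progenitors, was at 35.7 and 50.8 CPM. The RPE-like cells thus stood between the retina and the mesenchyme in both libraries. Outside the named classes, a cluster led by Col10a1, Alkal2 and Alpl, with markers of both mesenchyme and mural cells, was at 637 CPM in 333 control cells and 750.4 CPM in 185 mutant cells. Among classes under 50 cells, Ctgf was at 212 CPM (136 to 315) and 553 CPM (434 to 694) in peripheral glia-like cells, from 24 and 74 UMIs. It was at 21.6 CPM (9.89 to 41.1) and 139.9 CPM (112 to 173) in the 31 and 33 astrocyte-like cells, from 9 and 87 UMIs. Inside the mesenchyme-like class, the cluster led by Acan was at 568 and 812 CPM, and the cluster led by Aldh3a1, Fgf21 and A2m was at 104 and 129.5 CPM.

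Cyr61 was highest in mesenchyme-like cells, at 352 and 425 CPM, and RPE-like cells were next in both libraries. In the mutant the RPE-like level of 342 CPM lay above endothelial-like cells at 238 CPM without overlap, whereas in the control 220.2 CPM overlapped muscle-like cells at 213 CPM. The cluster led by Aldh3a1, low in Ctgf among mesenchyme clusters, was the highest of them in Cyr61, at 577 and 620.0 CPM. Retinal progenitor-like cells were at 32.8 and 35.8 CPM and differed by cluster. The cluster led by Ung and Cdc6 was at 41.6 and 47.0 CPM, and the cluster led by Ube2c and Ccnb1 at 17.9 and 18.2 CPM. Amotl2 had another map. It was highest in neurogenic-like cells, at 109 and 106 CPM, above retinal progenitor-like cells at 44.5 and 43.6 CPM without overlap. Muscle-like cells were next, at 81.4 and 97.2 CPM, and overlapped neurogenic-like cells. Ankrd1 was found in muscle-like cells, with 36 UMIs in control and 9 UMIs in mutant cells. In the other 11 classes it had at most 4 UMIs in a library.

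Patterns over the 24 combinations of class and library were compared across 11456 genes by Pearson's r of log2(CPM + 1), as a description, since the points share libraries and depth. The genes most like Yap1 were Parva (0.93), Gpx8 (0.92) and Trip6 (0.92), and those most like Wwtr1 were Ppic (0.95), Lamb2 (0.95) and Tcf7l1 (0.94). Tead1 was most like Btg3 (0.91), Ccdc8 (0.91) and Wipi1 (0.89), and Tead2 like Prelid2 (0.91), Csrp2 (0.89) and Cdk2ap1 (0.82). Lats2 was most like Lamc1 (0.95), Ccdc102a (0.94) and Kank2 (0.94). Ctgf was most like Fkbp10 (0.95), Marveld1 (0.94) and C1qtnf6 (0.94), and Cyr61 like Mdfic (0.96), Kank2 (0.95) and Kdelc2 (0.94). Amotl2 was most like Nedd4 (0.90), Pard3 (0.89) and Ryk (0.88). Ankrd1, with too few UMIs, was left out. Between the 8 genes, Lats2 and Wwtr1 were the most alike (0.87) and Cyr61 and Amotl2 the least (0.13). Amotl2, counted among the targets, had r of 0.29 with Ctgf and 0.82 with Tead1.

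Outside the RPE-like cells most pathway genes were within 2-fold. In endothelial-like cells 1 of 8 measured genes was past 2-fold higher, where 0.586% of 10750 genes were, and none lower, where 3.28% were. That gene was again Ctgf, with 697 UMIs in control and 837 UMIs in mutant cells, or 207 and 440.0 CPM (1.09, from 0.94 to 1.24). Cyr61 was at 135 and 238 CPM (0.82, from 0.63 to 1.01), Amotl2 at 48.6 and 85.2 CPM (0.80, from 0.49 to 1.13) and Lats2 at 55.4 and 77.8 CPM (0.48, from 0.17 to 0.81). The coactivators were level, with Yap1 and Wwtr1 both at -0.04. The Ctgf difference did not hold in both sexes. For Ctgf, cells with Xist only, 64 control and 92 mutant, were at 355 and 277 CPM (-0.36, from -0.63 to -0.09), and cells with Y-linked UMIs only, 189 and 33, at 199.9 and 633 CPM (1.66, from 1.45 to 1.87). Cyr61 was at 0.25 (-0.09 to 0.61) in the former and 1.12 (0.84 to 1.41) in the latter. The median depth of endothelial-like cells was 4230 UMIs against 9074 UMIs. After thinning, the share with a UMI was 12.8% (9.62 to 16.6) and 26.2% (19.6 to 33.8) for Ctgf, while the Ctgf ratio of the thinned UMIs was 0.92. The shares were 11.0% and 11.9% for Cyr61 and 7.05% and 6.25% for Amotl2, with overlapping intervals.

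In mesenchyme-like cells 0 of 8 measured genes were past 2-fold, where 0.219% of genes were higher and 0.422% lower. Ctgf was at 287 and 390.1 CPM (0.44, from 0.38 to 0.51), Cyr61 at 352 and 425 CPM (0.27, from 0.21 to 0.34) and Amotl2 at 60.9 and 72.0 CPM (0.24, from 0.09 to 0.40). The clusters of the class took different shares of its cells in each library. The Ctgf level was higher in the mutant in all 5 of them, but the intervals of the libraries overlap in 3, those led by Clec3b, Aldh3a1 and Tnmd. The ratio was 0.41 in cells with Xist and 0.40 in cells with Y-linked UMIs. Cyr61 was not higher throughout, being lower in the mutant in the clusters led by Clec3b (174 and 155 CPM) and Tnmd (354 and 297 CPM) and close in the cluster led by Lypd1 (518 and 513 CPM). The intervals overlap in each of these 3 clusters as well. Amotl2 was at 90.7 and 86.6 CPM in the cluster led by Clec3b. In pericyte-like cells 0 of 8 were past 2-fold, where 2.38% of genes were higher and 2.36% lower, and Ctgf was at 302 and 345 CPM (0.19, from -0.08 to 0.46). In the 24 control and 38 mutant pericyte-like cells with Xist only, Ctgf was at 361 and 255 CPM (-0.50, from -0.94 to -0.06).

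Rx>cre also acts in the neural retina. In retinal progenitor-like cells 0 of 8 measured genes were past 2-fold, where 0.148% of 13511 genes were higher and 0.740% lower. Ctgf was at 0.10 (-0.21 to 0.42) and Cyr61 at 0.12 (-0.04 to 0.29). Tead2 was at -0.10 (-0.19 to -0.01), Lats2 at -0.30 (-0.64 to -0.02) and Yap1 at -0.19, with an interval that ended just under 0. In neurogenic-like cells 0 of 8 were past 2-fold (0.347% of genes higher, 1.05% lower), and no interval lay apart from 0. In photoreceptor-like cells 0 of 6 were past 2-fold with 1 CPM added (0.808% higher, 1.43% lower). Cyr61 there, with 13 and 7 UMIs, was at -0.95 (-2.78 to 0.21), and without the added 1 CPM it was 2.33-fold lower in the mutant (5.63 and 2.42 CPM). In amacrine-like cells 0 of 5 were past 2-fold (0.841% higher, 1.09% lower). Red blood-like cells gave 0 of 1 (11.8% higher, 2.42% lower).

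Genes lower in the mutant past 2-fold were found in 3 small classes. In surface epithelium-like cells, 133 and 68 cells, 2 of 8 were lower, where 4.02% of genes were, and none higher, where 2.06% were. The clusters of this class were unevenly held, and the one led by Optc had 53 control and 6 mutant cells. That cluster held 24 of the control Ctgf UMIs, while the cluster led by Krt14 was at 37.2 and 41.7 CPM in Ctgf and at 67.7 and 62.6 CPM in Cyr61. In the cluster led by Krt6a Cyr61 was lower, with 22 and 2 UMIs (44.2 and 4.28 CPM). Over the whole class Ctgf had 47 and 14 UMIs (-1.16, from -2.19 to -0.33; -0.26 at a clustering resolution of 0.5) and Cyr61 77 and 23 UMIs (-1.18, from -1.95 to -0.52). Amotl2 in the same cells had 58 and 62 UMIs and was at 0.62 (0.09 to 1.17). In white blood-like cells, 263 and 71 cells led by C1qb and Pf4, 4 of 7 were lower, where 5.56% of genes were, and none higher, where 1.71% were. They were Ctgf (36 and 2 UMIs, -2.47, from -5.92 to -0.87), Tead1 (35 and 4 UMIs, -1.63, from -3.74 to -0.30), Tead2 (49 and 6 UMIs, -1.58, from -3.20 to -0.46) and Amotl2 (19 and 3 UMIs, -1.15, from -3.72 to 0.45). Without doublet removal none of the 4 was past 2-fold lower, with Ctgf at -0.84, Tead1 at -0.49, Tead2 at -0.24 and Amotl2 at 0.45. The mesenchyme and mural markers summed to 2650 and 80.5 CPM in surface epithelium-like cells and to 1596 and 126 CPM in white blood-like cells, and their part in these differences was not tested. In muscle-like cells 1 of 8 was lower, where 3.18% of genes were, and none higher, where 3.33% were. That gene was Ankrd1, at 43.1 and 14.8 CPM (-1.48, from -2.78 to -0.46), and Cyr61 in these cells was at 213 and 143 CPM (-0.57, from -0.96 to -0.20).

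**Figure D5:**
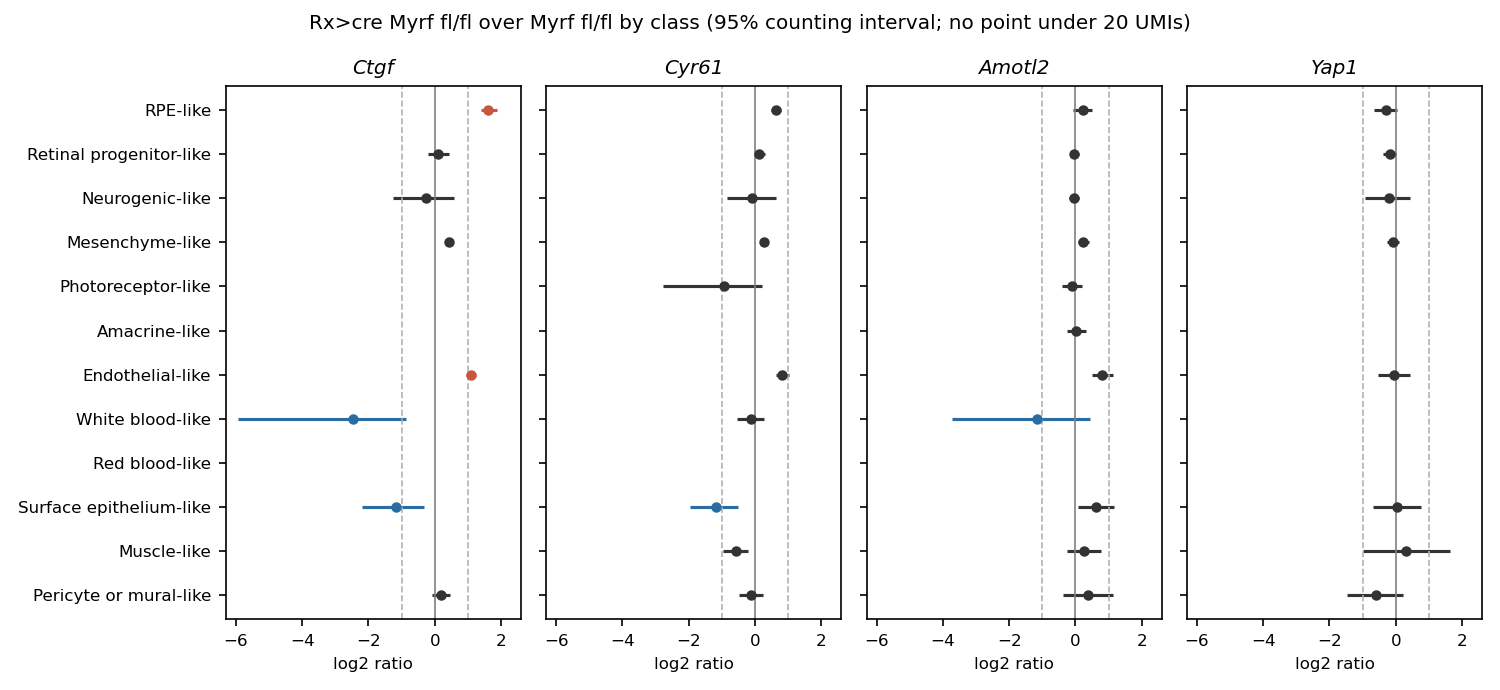
Log2 ratio of mutant over control CPM by class for Ctgf, Cyr61, Amotl2 and Yap1, with 95% counting intervals; red points are past 2-fold higher, blue points past 2-fold lower, dashed lines mark 2-fold, and genes under 20 UMIs in a class have no point. Ctgf is to the right of the 2-fold line in RPE-like (1.62) and endothelial-like cells (1.09), and Yap1 stays between the lines in every class shown.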

How the data were processed

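The deposited files hold UMI counts per gene and barcode for 1 library per genotype. Per the labels and methods, the authors made these counts with Cell Ranger 7.1.0 on mm10 and analysed them in Seurat 4.1.1. They stated limits of 200 genes, 15% mitochondrial UMIs and, for doublets, 2000 UMIs. The barcodes number 14305 and 12222, and all of these limits together would leave 2696 and 810. Because 80.2% and 92.1% of barcodes exceed 2000 UMIs, doublets were instead taken as the highest Scrublet scores (scanpy 1.11.5) at the expected 11.3% and 9.62%. The threshold Scrublet set by itself marked 0% and 5.46%.

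Kept cells were integrated and clustered in Seurat 5.3.0 (2000 variable genes, 30 components, resolution 1), with the pathway and target lists, RPE and melanocyte markers, Myrf and sex-linked genes kept out. Clusters were named from markers present in at least 10% of cells at 2-fold over other cells. The naming limits were chosen after clustering, and names rebuilt this way may differ from those of the study. UMIs were summed per class and library. Genes with 20 UMIs over both libraries were measured, and a call is a 2-fold difference. Ratio intervals are exact conditional Poisson intervals, and shares have exact Clopper-Pearson intervals. Ratios and intervals were run on counts drawn as independent Poisson values around the control RPE-like levels. These draws hold no variation between cells or libraries, so they cannot show how the intervals fare with it. All 9 genes are described in each compared class. Genes of the Hippo, target, dissociation and marker lists past 2-fold in RPE-like cells are named by rule, and the 3 most alike genes are given for each but Ankrd1. Other list genes and clusters named were chosen after their values were seen. Alternatives in filters, doublets, depth, scaling, pseudocount, clustering, gates, sex and free RNA were tried. The 9 genes and all lists were chosen with earlier results of these data known. Intervals and floors cover counting error only.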

Additional observations from a re-analysis of the deposited data

Results flagged for a closer look

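Some pathway genes differed between the libraries in opposite directions in different classes. With 1 library per genotype none of these contrasts between classes was tested. Ctgf, which was higher in mutant RPE-like cells, was lower in mutant white blood-like cells, at a ratio of -2.47 from 36 and 2 UMIs, and in surface epithelium-like cells, at -1.16. The former was -0.84 without doublet removal and the latter -0.26 at a clustering resolution of 0.5, both within 2-fold. In surface epithelium-like cells 24 of the 47 control Ctgf UMIs lay in a cluster of 53 control and 6 mutant cells, and the cluster led by Krt14 was at 37.2 and 41.7 CPM. Cyr61, also higher in mutant RPE-like cells, was lower in surface epithelium-like cells, at -1.18, and in muscle-like cells, at -0.57. In endothelial-like cells the Ctgf ratio turned with the sex of the cells. It was -0.36 in cells with Xist only and 1.66 in cells with Y-linked UMIs only, and this difference was not tested either.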

How the results depend on the processing

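No paired analysis was possible because each genotype has 1 library and no replicate numbers. The Ctgf ratio in RPE-like cells was positive under 20 of 21 settings and past 2-fold under 19, from -0.95 to 2.37. It turned to -0.95 under the pigment gate first chosen, which allows no UMI of Pax3, Kit or Mlana. That gate held 175 control and 34 mutant cells, of which 118 and 15 were RPE-like by cluster. A gate without Pax3 only, added after the data and this reversal were seen, gave 1.39. Ctgf in endothelial-like cells turned to -0.36 in cells with Xist only. Amotl2 in white blood-like cells turned to 0.45 without doublet removal, 0.60 in cells above 8000 UMIs and 3.09 in cells with Xist only, so its direction depends on a few UMIs.

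The count of pathway genes past 2-fold in RPE-like cells, 1 higher and 0 lower, became 2 higher and 4 lower in cells up to 2000 UMIs, where 15.4% and 40.0% of the same 11086 genes were. It became 0 and 1 in cells of 2000 to 8000 UMIs (9.46% and 21.7% of genes) and 0 and 2 under the pigment gate first chosen (11.4% and 19.8%). Thinning to 1000 UMIs gave 1 higher and 1 lower, Tead2 at -1.33 (9.84% and 21.8%), and a mark of 1.5-fold gave 2 higher and 0 lower (7.61% and 12.1%). Cyr61 in RPE-like cells ranged from -1.79 to 0.91 and was positive under 19 of 21 settings. Yap1 in these cells ranged from -0.62 to 1.54 and was negative under 17 of 21. Wwtr1 ranged from -5.63 in cells up to 2000 UMIs to 0.02 after thinning, and was negative under 20 of 21. Without doublet removal Ctgf, Tead1 and Tead2 went to -0.84, -0.49 and -0.24 in white blood-like cells, and Ctgf went to -0.26 in surface epithelium-like cells at a clustering resolution of 0.5. The first rank of RPE-like cells for Yap1 in the control became 2 after thinning and 3 in UMIs per cell. The causes of these shifts were not tested. In shallow cells most of the genes have few UMIs, which limits what can be read from them.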
